A study of Mus musculus with 6 samples.

Results

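The 9 genes described here build the junctions that hold epithelial cells together and couple them, out of 54532 genes in the expression table. They were taken by gene name from a fixed list of 9, and all 9 were found. Gja1 and Gjc1 encode the gap junction channel proteins connexin 43 and connexin 45. Cdh1, Cdh2 and Cdh11 encode E-cadherin, N-cadherin and cadherin 11, the adhesion receptors of adherens junctions. Ctnnb1 and Ctnna1 encode beta-catenin and alpha-catenin, which link cadherin tails to actin. F11r encodes junctional adhesion molecule A, an immunoglobulin-type receptor of tight junctions, and Tjp1 encodes ZO-1, the scaffold below them.

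In the ovary, granulosa cells surround the oocyte as an avascular epithelium and depend on these contacts. N-cadherin is the main cadherin between granulosa cells, and connexin 43 channels pass small molecules from cell to cell. Beta-catenin has a second role as a coactivator of TCF and LEF transcription factors in WNT signalling. ZO-1 binds the cytoplasmic ends of connexin 43 and of junctional adhesion molecule A, and it also binds alpha-catenin, so it touches all 3 kinds of junction.

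The cells were wild-type mouse ovarian granulosa cells in adherent culture for 2 days, of which 3 libraries came from cells then exposed to cyclophosphamide for 24 h and 3 from cells left untreated. Cyclophosphamide is an alkylating chemotherapy drug that damages ovarian follicles. It is a prodrug activated mainly by liver enzymes. The sources used here give no dose, no mouse strain or age and no origin of the replicates, and a treatment label that names injection into the peritoneum goes against the description of drug added to cultures. Levels are FPKM, the authors' read numbers divided by gene length and library size. Libraries held between 16458385 and 17607586 reads, and 14751 genes with enough reads were tested.

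The granulosa label was checked against 15 markers, of which 13 were tested, 1 rose and 11 fell. Over all tested genes 33.3% rose and 35.9% fell. The markers had a summed level of 1120 to 1438 FPKM in cyclophosphamide libraries and 3012 to 3188 FPKM in untreated libraries. Inha, Foxl2 and Fshr were present in both groups, while the aromatase gene Cyp19a1 had 1 read in the cyclophosphamide and 3 in the untreated libraries in all. Cyclophosphamide replicate 1 stood apart from its group, with a chi-square of 18.4 and 10.8 per gene against cyclophosphamide replicates 2 and 3, which differed from each other by 5.79. Among untreated libraries the value was 3.82 to 7.64. In bulk RNA, fewer cells of a type and less RNA per cell cannot be told apart.

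RefSeq promoter windows, matched by symbol, are shown for 4 of the 9 genes. These are the only one that rose, Tjp1, and 3 that fell. No window is shown for the other members, among them Cdh2 and Ctnna1, so the 4 do not stand for all 9. Each window runs from 250 bases before to 50 bases after a RefSeq transcription start in build GRCm38.p6, 5′ to 3′ on the strand of the gene. Capitals mark matches, on either strand, to 1 of 9 motifs. The motifs searched were AP-1 (TGANTCA), the cyclic AMP response element (TGACGTCA), the antioxidant response element core (TGACNNNGC), the Snail-type E-box (CAGGTG), TEAD (GGAATG), TCF/LEF (TCAAAG), the GC box (GGGCGG), the CCAAT box (CCAAT) and the TATA box (TATAAA). A stretch can match both the AP-1 and the antioxidant response element patterns.
Gja1 (chr10:56377050-56377349, + strand): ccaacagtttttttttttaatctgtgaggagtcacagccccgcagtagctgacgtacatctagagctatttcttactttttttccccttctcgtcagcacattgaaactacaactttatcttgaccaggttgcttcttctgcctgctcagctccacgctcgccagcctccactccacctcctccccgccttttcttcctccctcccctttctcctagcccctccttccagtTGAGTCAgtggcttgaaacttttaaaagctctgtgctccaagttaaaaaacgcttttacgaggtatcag
Ctnnb1 (chr9:120933150-120933449, + strand): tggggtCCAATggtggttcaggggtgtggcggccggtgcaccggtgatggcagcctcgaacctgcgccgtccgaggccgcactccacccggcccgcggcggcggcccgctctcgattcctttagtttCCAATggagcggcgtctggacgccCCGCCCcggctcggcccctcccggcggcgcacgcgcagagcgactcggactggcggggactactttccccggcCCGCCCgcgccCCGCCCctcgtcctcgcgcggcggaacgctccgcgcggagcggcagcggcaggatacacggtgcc
F11r (chr1:171437311-171437610, + strand): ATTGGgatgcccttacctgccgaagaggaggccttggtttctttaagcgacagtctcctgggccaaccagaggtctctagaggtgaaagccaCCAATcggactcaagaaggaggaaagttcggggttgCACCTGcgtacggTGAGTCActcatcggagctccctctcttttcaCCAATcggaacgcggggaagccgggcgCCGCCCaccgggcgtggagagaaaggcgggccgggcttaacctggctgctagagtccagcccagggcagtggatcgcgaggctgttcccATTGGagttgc
Tjp1 (chr7:65371195-65371494, - strand): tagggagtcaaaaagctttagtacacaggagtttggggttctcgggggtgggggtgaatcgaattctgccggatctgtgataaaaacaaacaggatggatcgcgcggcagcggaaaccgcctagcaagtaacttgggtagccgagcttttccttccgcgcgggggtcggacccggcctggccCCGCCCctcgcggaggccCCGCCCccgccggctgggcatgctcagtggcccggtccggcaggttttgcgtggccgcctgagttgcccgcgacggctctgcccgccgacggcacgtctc

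The AP-1 letters TGAGTCA stood 19 bases before the start of Gja1 and 109 bases before the start of F11r. An AP-1 match was found in 7.93% of 27025 promoter windows, 1 per gene. The F11r window also held the Snail-type E-box in its reverse form CACCTG, a motif found in 20.03% of windows, and 4 CCAAT boxes (37.9% of windows). GC boxes numbered 3 in the Ctnnb1 window, 2 in the Tjp1 window and 1 in the F11r window, and 35.9% of all windows had at least 1. The cyclic AMP response element, found in 1.88% of windows, was in none of the 4, nor were the antioxidant response element core (12.5%), TEAD (14.6%), TCF/LEF (16.2%) and TATA box (14.2%) letters. GC content was 47.7% for Gja1, 75.3% for Ctnnb1, 60.3% for F11r and 65.3% for Tjp1, against a median of 52.7% over all windows. These are matches of letters and not measured binding. The Tjp1 and Ctnnb1 windows lie inside the spans that the expression table gives for these genes, away from the start of the span, and RefSeq has a second window for Ctnnb1 that is not shown.

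Most of these junction genes were lower after cyclophosphamide. Called here means an adjusted p under 0.05 in limma, fitted over all tested genes with Benjamini-Hochberg adjustment, two-sided. Of the 9 genes, 8 were tested, 7 were called lower and 1 (Tjp1) was called higher. Across the transcriptome 69.3% of tested genes were called, 35.9% lower and 33.3% higher, so a call by itself was common. The groups did not overlap for any of the 8, while this held for 73.4% of all tested genes, 37.9% lower and 35.5% higher. The median log2 fold change of the 8 was -0.79, against -0.02 over all tested genes. Cdh11 passed the filter through the untreated libraries alone, so its call was bound to be a fall, and the other 7 passed in both groups. The fall was at least 2-fold for Cdh2, Ctnnb1 and Cdh11. Of all tested genes, 16.6% were called lower with a fall of at least 2-fold. For Cdh11 this size depends on the constant added to FPKM, with log2 fold changes of -0.37 at 0.5 and -0.20 at 1. Without cyclophosphamide replicate 1, Ctnnb1 was at -0.98, just short of 2-fold.

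**Figure D1:**
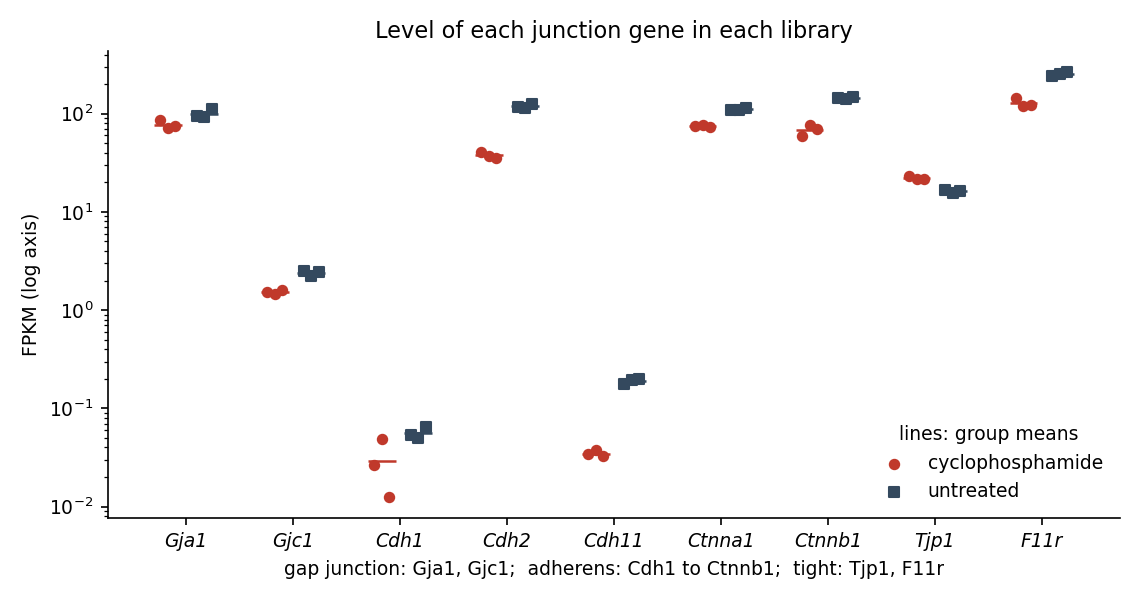
Level of each of the 9 junction genes in each library, in FPKM on a log axis, with 3 cyclophosphamide libraries (circles) to the left of 3 untreated libraries (squares) and lines at the group means. The cyclophosphamide points lie below the untreated points for every gene except Tjp1. The margin is narrow for Cdh1, which had 1 to 5 reads per library and was not tested. Cdh1 and Cdh11 lie far below the other genes.

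Among the gap junction genes, Gja1 was abundant and fell the least. Gja1 (ENSMUSG00000050953, chromosome 10 from 56377330 to 56402513 in GRCm38, the build of all gene positions here) had 86.4, 71.9 and 74.1 FPKM in cyclophosphamide libraries and 94.8, 92.5 and 110.9 FPKM in untreated libraries. The highest cyclophosphamide library, replicate 1, came close to the lowest untreated library without reaching it. The log2 fold change of Gja1 was -0.36 ± 0.10 (SE, 95% interval -0.59 to -0.13, limma, adjusted p = 0.013), and the level fell by 22.03%. Over the alternative settings its adjusted p reached 0.049, without untreated replicate 3, where the log2 fold change was -0.28. Without cyclophosphamide replicate 1 it was -0.44.

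Gjc1 (ENSMUSG00000034520, chromosome 11 from 102799579 to 102819700), whose product forms channels of low conductance, had 1.53, 1.46 and 1.62 FPKM in cyclophosphamide libraries and 2.52, 2.23 and 2.44 FPKM in untreated libraries. The groups were apart, and the log2 fold change was -0.61 ± 0.12 (limma, adjusted p = 0.0023). Gja1 made up 98.3%, 98.0% and 97.9% of the summed FPKM of both connexins in cyclophosphamide libraries and 97.4%, 97.6% and 97.8% in untreated libraries. The difference was 0.41 percentage points (exact permutation test, two-sided, p = 0.1, the smallest that 3 against 3 libraries can give). No other connexin reached the level of Gjc1. Of 21 other connexins and pannexins 3 were tested and 1 rose, beside 33.3% higher and 35.9% lower over all tested genes. The gene that rose was Panx1, a channel gene that does not form classical gap junctions (0.78 ± 0.08 on the log2 scale, limma, adjusted p = 7.1e-05). Panx1 had 7.45, 7.76 and 7.01 FPKM in cyclophosphamide libraries and 4.31, 4.22 and 4.27 FPKM in untreated libraries. Panx2 was not called, at 0.52 ± 0.22. Gja4, which encodes connexin 37 and joins the oocyte to its granulosa cells, had 6 reads in the cyclophosphamide libraries and 12 in the untreated libraries, and was not tested.

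Of the cadherins, Cdh2 supplied most of the RNA, and it fell more than 3-fold. Cdh2 (ENSMUSG00000024304, chromosome 18 from 16588877 to 16809246) had 40.9, 36.9 and 35.4 FPKM in cyclophosphamide libraries and 115.8, 114.5 and 125.0 FPKM in untreated libraries. All 3 cyclophosphamide libraries lay far below all untreated libraries. The log2 fold change was -1.65 ± 0.08 (95% interval -1.82 to -1.47, limma, adjusted p = 1.6e-06), and the level fell by 68.1%. It ranged from -1.76 to -1.60 over the alternative settings.

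Cdh11 and Cdh1 were rare in these cells. Cdh11 (ENSMUSG00000031673, chromosome 8 from 102632095 to 102785642), a cadherin of mesenchymal cells, had 5, 6 and 5 reads in cyclophosphamide libraries and 26, 30 and 30 reads in untreated libraries. In proportion to the reads of the libraries this is a ratio of 0.189 (exact 95% interval 0.103 to 0.324, counting error only). On the log2(FPKM + 0.1) scale the change was -1.11 ± 0.17 (limma, adjusted p = 0.00065), and its size depends on the method, with -0.37 at a pseudocount of 0.5, -0.20 at a pseudocount of 1 and -2.31 in limma-voom on the reads. Cdh1 (ENSMUSG00000000303, chromosome 8 from 106603351 to 106670246), the cadherin of most epithelia, had 2, 4 and 1 reads in cyclophosphamide libraries and 4, 4 and 5 reads in untreated libraries and was not tested. The ratio of 0.546 has an exact 95% interval of 0.184 to 1.47, so the depth does not allow a difference to be seen.

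Cdh2 stayed the main cadherin RNA in both groups. It held 99.9%, 99.8% and 99.9% of the summed FPKM of the 3 cadherins in cyclophosphamide libraries and 99.8% in each untreated library (exact permutation test, two-sided, p = 0.4). In reads not divided by gene length, the Cdh2 share was 99.87%, 99.81% and 99.88% in cyclophosphamide libraries and 99.80%, 99.79% and 99.80% in untreated libraries (exact permutation test, p = 0.1, the smallest possible). Over all 19 listed cadherins, a sum chosen after its values were seen, the Cdh2 share was lower after the drug, at 91.2%, 91.8% and 91.5% in cyclophosphamide libraries and 95.2%, 94.7% and 96.1% in untreated libraries. The groups did not overlap. Within the 3 cadherins, the Cdh11 share was 0.083%, 0.102% and 0.092% in cyclophosphamide libraries and 0.154%, 0.168% and 0.159% in untreated libraries (exact permutation test, p = 0.1, the smallest possible). The Cdh1 share was 0.065%, 0.132% and 0.036% in cyclophosphamide libraries and 0.046%, 0.044% and 0.052% in untreated libraries (exact permutation test, p = 0.4), on the few reads given above. Of 16 other cadherins 5 were tested and 3 fell, beside 35.9% called lower over all tested genes. The 3 were Cdh3 (-0.75 ± 0.14), which encodes P-cadherin, Cdh10 (-1.10 ± 0.21) and Cdh13 (-0.74 ± 0.23), the last encoding a cadherin anchored to the membrane by lipid. The fall of Cdh10 rests on 13 reads in the cyclophosphamide and 88 in the untreated libraries, and the gene passed the filter through the untreated libraries alone. Cdh3, the most abundant of these, averaged 1.76 ± 0.08 FPKM in cyclophosphamide libraries and 3.06 ± 0.48 FPKM in untreated libraries (SD, n = 3 each).

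Both catenin members fell. Ctnnb1 (ENSMUSG00000006932, chromosome 9 from 120929216 to 120960507) had 59.9, 76.5 and 70.3 FPKM in cyclophosphamide libraries and 145.3, 140.3 and 147.5 FPKM in untreated libraries. Cyclophosphamide replicate 1 was the lowest, and all 3 lay far below the untreated libraries. The log2 fold change was -1.07 ± 0.10 (95% interval -1.29 to -0.85, limma, adjusted p = 3.0e-05) and -0.98 without that replicate. Ctnna1 (ENSMUSG00000037815, chromosome 18 from 35118888 to 35254773) had 75.2, 76.4 and 72.9 FPKM in cyclophosphamide libraries and 108.7, 109.7 and 114.1 FPKM in untreated libraries. Replicates were close in both groups, and the log2 fold change of -0.57 ± 0.06 (limma, adjusted p = 8.2e-05) means that the level fell by 32.4%. Exons of both genes overlap exons of a gene on the other strand, Ulk4 for Ctnnb1 and Lrrtm2 for Ctnna1, and the strand setting of the counting is not given. Ulk4 held 321 reads and Lrrtm2 18 reads over all 6 libraries, against 56530 for Ctnnb1 and 35086 for Ctnna1.

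The tight junction members went in opposite directions. F11r (ENSMUSG00000038235, chromosome 1 from 171437535 to 171464603), the most abundant of the 9, had 144.1, 120.8 and 121.5 FPKM in cyclophosphamide libraries and 242.4, 252.7 and 265.6 FPKM in untreated libraries. The groups were far apart, with cyclophosphamide replicate 1 the highest of its group. The log2 fold change was -0.98 ± 0.09 (95% interval -1.20 to -0.76, limma, adjusted p = 4.5e-05), and the level fell by 49.3%. Tjp1 (ENSMUSG00000030516, chromosome 7 from 65296165 to 65527781) had 23.5, 21.4 and 21.5 FPKM in cyclophosphamide libraries and 16.6, 15.5 and 16.3 FPKM in untreated libraries. All 3 cyclophosphamide libraries were above all untreated ones. The log2 fold change of Tjp1 was 0.45 ± 0.07 (95% interval 0.30 to 0.60, limma, adjusted p = 0.00043), and the level rose by 36.7%. Under upper-quartile scaling, which shifted the median of all genes by -0.11, Tjp1 was at 0.34 and still called.

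**Figure D2:**
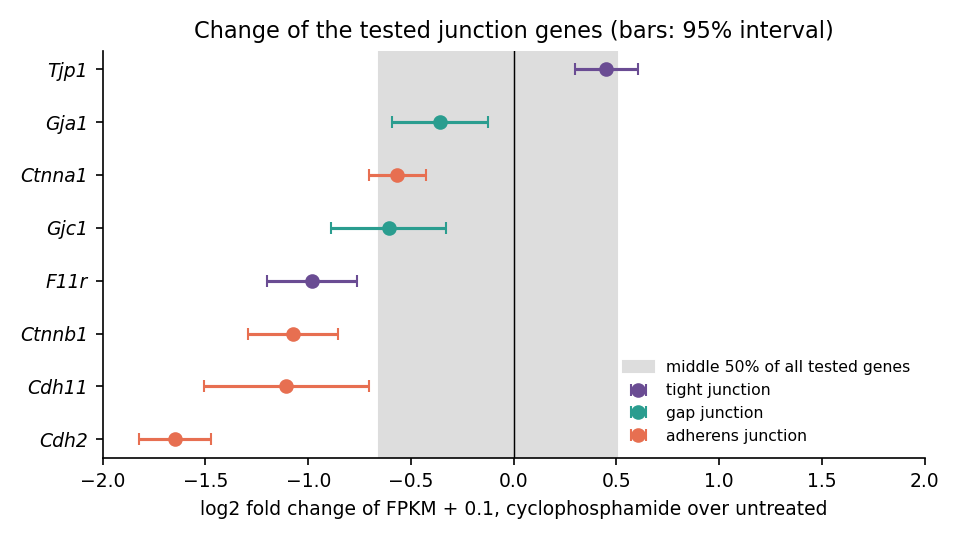
Log2 fold change, cyclophosphamide over untreated, of the 8 tested junction genes on the log2(FPKM + 0.1) scale, with 95% intervals from limma and colours for the kind of junction. Tjp1 is at 0.45, Gja1, Ctnna1 and Gjc1 are at -0.36, -0.57 and -0.61, and F11r, Ctnnb1, Cdh11 and Cdh2 lie below the grey band that holds the middle 50% of all tested genes (-0.66 to 0.50).

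The unequal changes altered the order of the levels. In cyclophosphamide libraries F11r came first, and Gja1, Ctnna1 and Ctnnb1 followed with ranges that overlap between neighbours (71.9 to 86.4, 72.9 to 76.4 and 59.9 to 76.5 FPKM). Cdh2, Tjp1 and Gjc1 came next, each apart from its neighbours, and Cdh11 and Cdh1 were last and overlapped. In untreated libraries the order was F11r, Ctnnb1, Cdh2, Ctnna1, Gja1, Tjp1, Gjc1, Cdh11 and Cdh1, and the ranges of Ctnna1 (108.7 to 114.1 FPKM) and Gja1 (92.5 to 110.9 FPKM) were the only neighbours to overlap. By mean level, Cdh2 exceeded 90.9% of tested genes in cyclophosphamide and 97.9% in untreated libraries, and Tjp1 exceeded 82.2% in cyclophosphamide and 76.9% in untreated libraries.

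Ratios between members in the same library, chosen after their values were seen, are free of the scaling between libraries. Ctnna1 over Cdh2 was 1.84, 2.07 and 2.06 in cyclophosphamide libraries and 0.94, 0.96 and 0.91 in untreated libraries. Ctnnb1 over Cdh2 was 1.46, 2.07 and 1.99 in cyclophosphamide libraries and 1.25, 1.22 and 1.18 in untreated libraries. Both ratios were higher in all 3 cyclophosphamide libraries than in any untreated library. Ctnnb1 over Ctnna1 was 0.796, 1.001 and 0.965 in cyclophosphamide libraries and 1.34, 1.28 and 1.29 in untreated libraries. Gja1 over Cdh2 averaged 2.05 ± 0.09 in cyclophosphamide libraries and 0.84 ± 0.04 in untreated libraries (SD, n = 3 each). Tjp1 over F11r averaged 0.172 ± 0.008 in cyclophosphamide libraries and 0.064 ± 0.004 in untreated libraries, and Tjp1 over Gja1 averaged 0.286 ± 0.014 in cyclophosphamide and 0.163 ± 0.015 in untreated libraries. None of the 6 ratios overlapped between the groups. Such separation was common among single genes, at 73.4% of all tested genes, and no share over other ratios is given. No test is given because the pairs were chosen after their values were seen.

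**Figure D3:**
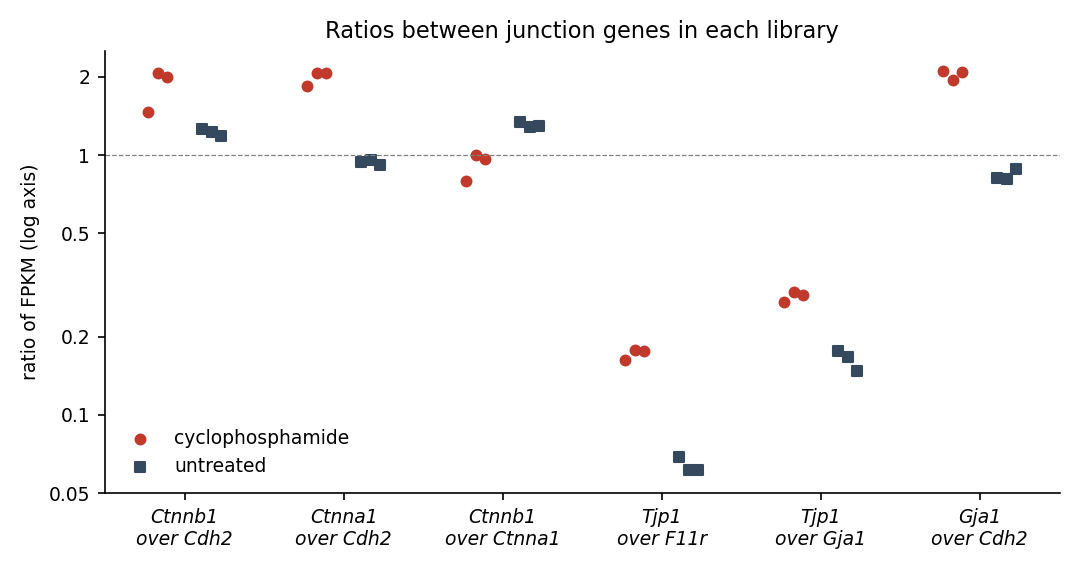
Ratio of FPKM between pairs of junction genes in each library, on a log axis, with 3 cyclophosphamide libraries (circles) to the left of 3 untreated libraries (squares) and a dashed line at equal levels. Ctnna1 over Cdh2 and Gja1 over Cdh2 lie above 1 in every cyclophosphamide library and below 1 in every untreated library.

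Other genes of the same junctions were examined in 8 lists of 139 genes in all, of which 138 were in the table and 84 were tested. Of these 25 rose, 42 fell and 17 were not called, with a median of -0.37. Lower calls were 50% and higher calls 29.8% of those tested, beside 35.9% lower and 33.3% higher over all tested genes. These lists were chosen with earlier results known, and the shares are a description. Among the 84, 5 passed the filter through the untreated libraries alone and 2 through the cyclophosphamide libraries alone, so that the direction of any call was fixed for them.

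In the list of catenins, actin linkers and nectins 9 of 16 tested genes fell and 3 rose (median -0.60), beside 35.9% lower and 33.3% higher over all tested genes. Of the 16, 1 passed the filter through the untreated libraries alone. Vcl, which encodes the actin linker vinculin, had 12.58, 10.97 and 11.81 FPKM in cyclophosphamide libraries and 32.45, 32.62 and 33.24 FPKM in untreated libraries (-1.47 ± 0.07, limma, adjusted p = 1.6e-06). The genes that rose were Pvr (1.33 ± 0.07), which encodes a nectin-like receptor, Ctnnal1 (0.63 ± 0.09), which encodes an alpha-catenin relative, and Nectin4 (1.47 ± 0.28). The rise of Nectin4 rests on 90 reads in the cyclophosphamide and 21 in the untreated libraries. Only 1 untreated library reached the filter level for Nectin4, against 3 cyclophosphamide libraries. The next 3 catenin genes are named after their values were seen. Ctnna2, the neural alpha-catenin gene, had 5.27, 1.54 and 2.14 FPKM in cyclophosphamide libraries and 23.2, 22.1 and 21.8 FPKM in untreated libraries (-3.05 ± 0.37), with cyclophosphamide replicate 1 well above the other 2 of its group. Ctnnd1, which encodes p120-catenin, the protein that holds cadherins at the membrane, was at -1.203 ± 0.075, and Jup, which encodes plakoglobin, a close relative of beta-catenin, was at -1.31 ± 0.08, both called lower. Afdn, the nectin linker afadin, also named after its values were seen, was at 0.18 ± 0.08 and not called.

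Of 10 tested genes for tight junction membrane proteins 6 fell and 2 rose (median -0.60), beside 35.9% lower and 33.3% higher over all tested genes. Cldn1, 1 of the 6, passed the filter through the untreated libraries alone, and Cldn5, Cldn8, Cldn9, Cldn14, Cldn16 and Cldn22 had no read in any library. The 2 that rose had the smallest p of the list. Cldn12, the most abundant claudin gene here, had 26.3, 27.1 and 27.8 FPKM in cyclophosphamide libraries and 13.3, 13.1 and 14.0 FPKM in untreated libraries (1.002 ± 0.060, limma, adjusted p = 4.6e-06). Esam, an adhesion gene best known in endothelium, rose by 2.40 ± 0.16. Jam2 and Jam3, 2 of the relatives of F11r, named after their values were seen, fell by 1.96 (SE 0.26) and 0.63 (SE 0.08). Ocln, the occludin gene, also named after its values were seen, fell by 1.95 (SE 0.20). Beside Esam, the 9 endothelial markers summed to 0.864 to 1.29 FPKM in cyclophosphamide and 1.22 to 2.00 FPKM in untreated libraries, with 0 of 3 tested called and Cldn5 at 0 reads.

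Of 24 scaffold and polarity genes, all tested, 14 fell and 9 rose (median -0.48), beside 35.9% lower and 33.3% higher over all tested genes. In this list 1 gene passed the filter through the untreated libraries alone. Amotl2, which encodes an angiomotin relative that binds the YAP coactivator, had 52.7, 54.6 and 47.4 FPKM in cyclophosphamide libraries and 179, 192 and 186 FPKM in untreated libraries (-1.85 ± 0.08, limma, adjusted p = 9.6e-07). Arhgef2, which encodes a RHOA exchange factor that tight junctions can hold, rose by 1.16 ± 0.06 (adjusted p in limma = 2.0e-06). Tjp3, a paralog of Tjp1 named after its values were seen, rose by 0.69 ± 0.24 (limma, adjusted p = 0.033) at a low level, with 119 reads in the cyclophosphamide and 67 in the untreated libraries. Among desmosome genes 6 of 8 tested fell (median -0.65), beside the same shares over all tested genes, and 1 of the 8 passed the filter through the untreated libraries alone. Pkp4 was at -0.95 ± 0.08, and Dsp, which encodes the linker desmoplakin, rose by 0.85 ± 0.09.

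Genes whose products act on members were examined too. In the list of the destruction complex, which marks beta-catenin for breakdown, 5 of 10 tested genes rose and 2 fell (median 0.21), beside 33.3% higher and 35.9% lower over all tested genes. Those that rose were the scaffold genes Axin1 (1.15 ± 0.09) and Apc (0.52 ± 0.06), the kinase genes Gsk3b (0.45 ± 0.06) and Csnk1a1 (0.24 ± 0.06) and the ubiquitin ligase gene Fbxw11 (0.46 ± 0.06). Apc2 (-1.47 ± 0.21) and Amer1 (-1.16 ± 0.21) fell, and Axin2, a target gene of beta-catenin as well as a scaffold, was at -0.05 ± 0.11 (limma, adjusted p = 0.69). Among 8 tested genes for repressors of E-cadherin transcription 4 rose and 2 fell (median 0.39), and 2 of the 4 could only rise, since they passed the filter through the cyclophosphamide libraries alone. Snai2 (Slug) had 4.30, 5.47 and 4.64 FPKM in cyclophosphamide libraries and 0.605, 0.935 and 0.381 FPKM in untreated libraries (2.79 ± 0.27, limma, adjusted p = 4.3e-05), and Zeb2 rose by 0.80 ± 0.07. Snai3 (1.49 ± 0.28) and Twist1 (1.84 ± 0.42) rose on 41 and 71 reads in the cyclophosphamide against 9 and 15 in the untreated libraries, and are the 2 that could only rise. Tcf4 (-1.24 ± 0.10) and Tcf3 (-0.48 ± 0.06) fell. Snai1 was not called (-0.07 ± 0.30). Cdh1, the target that names this list, was near 0 in both groups.

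**Figure D4:**
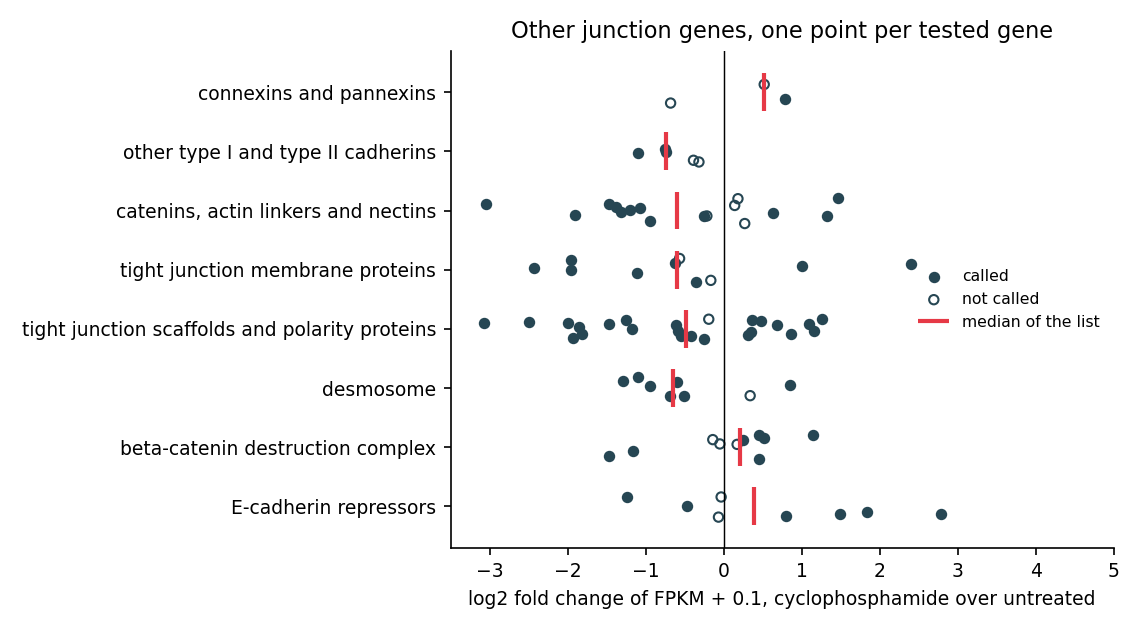
Log2 fold change, cyclophosphamide over untreated, of the 84 other junction genes tested, by list, on the log2(FPKM + 0.1) scale, with filled points for called genes, open points for the rest and a red line at the median of each list. The medians lie between -0.74 and -0.48 for the cadherin, catenin, tight junction and desmosome lists and at 0.21 and 0.39 for the destruction complex and E-cadherin repressor lists, and each list has points on both sides of 0 except the cadherins.

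Long genes were lower as a class, and some members are long. Tested protein-coding genes were split into 5 equal groups by span. The group with the longest span (72.9 kb and over) had a median log2 fold change of -0.46, with 55.9% called lower, while the medians of the other 4 groups lay between -0.04 and 0.07. Ctnna1, Cdh11, Cdh2 and Tjp1, which span 135.9, 153.5, 220.4 and 231.6 kb, are in that group. Cdh2 was lower than all but 14.0% of its genes, Ctnna1 lay near its middle (46.3% of genes lower), and Tjp1 was above 84.3% of them. Gjc1, Gja1, F11r and Ctnnb1 span 20.1 to 31.3 kb, in a group with a median of 0.07, and all 4 were below that median. The part of gene span in the falls of Ctnna1, Cdh11 and Cdh2 was not tested.

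**Figure D5:**
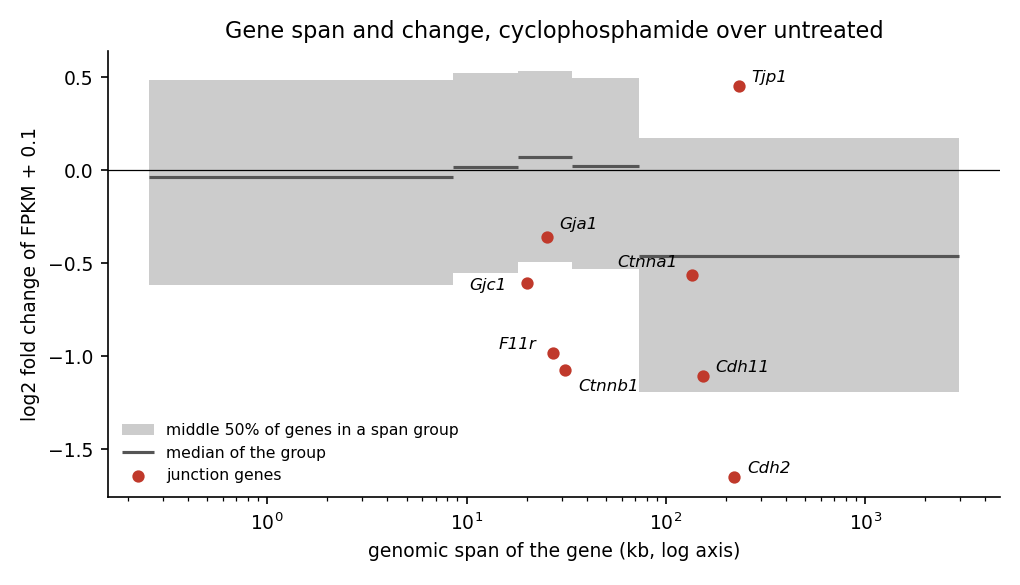
Log2 fold change, cyclophosphamide over untreated, against genomic span in kb on a log axis for the 8 tested junction genes (points), over the median (line) and middle 50% (grey) of tested protein-coding genes in each of 5 span groups. Tjp1 at 0.45 and Cdh2 at -1.65 lie on opposite sides of the longest group, whose median is -0.46.

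Markers of other ovarian cell types also moved, while 35.9% of all tested genes were called lower and 33.3% higher. Of 11 surface epithelium markers 6 were tested and 5 fell. Among the 6, 2 passed the filter through the untreated libraries alone, so any call of them was bound to be a fall. The list had a summed level of 50.5 to 73.9 FPKM in cyclophosphamide and 107 to 121 FPKM in untreated libraries, nearly all from Krt8 and Krt18. Epcam had 5 reads in the cyclophosphamide and 16 in the untreated libraries. Of 11 smooth muscle and pericyte markers 10 were tested, 2 rose and 6 fell, with sums of 23.7 to 35.7 FPKM in cyclophosphamide and 148 to 160 FPKM in untreated libraries. Of 9 theca and stroma markers 4 were tested and 2 fell, with sums of 7.94 to 9.48 FPKM in cyclophosphamide and 25.6 to 31.5 FPKM in untreated libraries. None of these 3 lists had a marker without a read in the 6 libraries.

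The summed levels of macrophage and oocyte markers moved the other way. Over all tested genes, 33.3% were called higher and 35.9% lower. Of 11 macrophage markers 4 were tested, 3 rose (Csf1r, Cd68 and Cd14) and Lyz2 fell, with sums of 11.6 to 15.5 FPKM in cyclophosphamide and 7.61 to 8.58 FPKM in untreated libraries. The leukocyte gene Ptprc had 7 reads in the cyclophosphamide and 9 in the untreated libraries, and Adgre1 had 1 in the cyclophosphamide and 3 in the untreated libraries. Of 12 oocyte markers 3 were tested and 2 rose (Gdf9 and Ooep), with sums of 3.33 to 4.95 FPKM in cyclophosphamide and 0.936 to 1.37 FPKM in untreated libraries. Figla had no read. The part of these 5 marker lists in the changes of the junction genes was not tested.

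The gene most like each member was sought by the root mean square difference of log2(FPKM + 0.1) over the 6 libraries, each profile centred on its own mean. The nearest protein-coding genes were Dph3 for Gja1 (0.037), Mpdz for Gjc1 (0.031), Agfg2 for Cdh2 (0.016) and Sulf2 for Cdh11 (0.018). They were Tcn2 for Ctnna1 (0.021), Rabl3 for Ctnnb1 (0.021), Cnbp for Tjp1 (0.020) and Ldha for F11r (0.025). Such likeness was common, since 89 genes lay within 0.1 of Cdh2 and 803 within 0.1 of Tjp1.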

How the data were processed

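Polyadenylated RNA of 3 cyclophosphamide and 3 untreated libraries was measured. CASAVA and HISAT2 version 2.0.5 with build GRCm39 were used, per the submitters' processing notes. The sources used here do not give the counting tool, strand setting or annotation. The deposited values are FPKM made by the authors, although the file is named as counts: they are not whole numbers, and times gene length, 100% of them in each library are whole multiples of 1 step, within 0.01 of a read. That step gave the reads, 16458385 to 17607586 per library. The authors' library size was 0.975 to 1.04 times the summed reads. Of 54409 gene IDs shared with GENCODE M21 (GRCm38), 98.3% had equal coordinates, so the table's coordinates are printed and read as GRCm38.

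Values entered limma (version 3.58.1, R 4.3.3) as log2(FPKM + 0.1), a scale that understates the change of low genes. The fit used a mean-variance trend. Two-sided p-values were adjusted over all 14751 genes by the Benjamini-Hochberg method and called under 0.05. A gene was kept if 3 libraries or more had the equivalent of 10 reads and all together had 15. The fit was tested on simulated data. Shares of connexins and cadherins used exact permutation tests. Exact 95% intervals cover counting error only. The labels do not say that replicates came from separate cultures, so p-values measure only the spread between these libraries, which may be technical.

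The members and gene lists were chosen with earlier results of these data known. Named are the members and the nearest profile per member. For each list, the 2 called genes with the smallest p or all genes of a small count are named. Other called genes of the junction lists are marked. Genes not called or not tested, such as Panx2, Gja4, Axin2 and Snai1, and the cell type markers fall outside this rule. Alternatives were other pseudocounts, filters and scalings, limma-voom with TMM on the recovered reads, no trend, the replicate number as a block, and leaving out each library. Some genes of the lists are not reported here by name.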

Additional observations from a re-analysis of the deposited data

How the results depend on the processing

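All 8 tested members kept their direction and their call under every alternative that could be fitted; Cdh11 had too low a level for the filter of a mean of at least 1 FPKM. Across these settings the log2 fold change ran from -0.47 to -0.28 for Gja1, -0.72 to -0.42 for Gjc1, -0.68 to -0.52 for Ctnna1, -1.19 to -0.98 for Ctnnb1, -1.10 to -0.93 for F11r and 0.34 to 0.50 for Tjp1. With a replicate block, the log2 fold change of Gja1 was -0.36 (limma, adjusted p = 0.024), 4767 genes were called higher and 5143 lower, and no call of a member changed. Same-numbered libraries did not deviate together (correlations of -0.08, 0.01 and -0.03). With so few libraries this cannot show whether they share an origin, which the sources used here do not give. The whole table gave 4919 higher and 5300 lower calls, and 4196 higher and 6001 lower under upper-quartile scaling.

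Some counts in small lists moved by over 1.5 times. With the filter of a mean of at least 1 FPKM, which leaves fewer genes to test, 1 cadherin and 1 destruction complex gene were called lower and 2 E-cadherin repressor genes higher. In limma-voom 5 genes of the catenin, linker and nectin list were called higher. Without a mean-variance trend 2 connexin and pannexin genes were called higher. Leaving out 1 library at a time gave 1 to 2 higher calls among connexins and pannexins and 3 to 5 among catenins, linkers and nectins, the highest without cyclophosphamide replicate 1 in both. The causes of the changes in limma-voom and without a trend were not tested. The difference in the Cdh2 share of cadherin FPKM was 0.04 percentage points over the 3 members and -3.81 over all 19 listed cadherins, an alternative chosen after seeing the data.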
